A study of Mus musculus with 10 samples.

Results

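The Sm core genes of the mouse encode the proteins that form the ring shared by most spliceosomal small nuclear ribonucleoproteins (snRNPs). The members were the 8 genes Snrpb, Snrpd1, Snrpd2, Snrpd3, Snrpe, Snrpf, Snrpg and Snrpn, taken by symbol from a count table of 25239 genes. All 8 were in the table, and 7 had enough reads for a test, the exception being Snrpn.

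RNA of whole testis from C57BL/6 mice was sequenced at postnatal days 4 (P4) and 7 (P7). The groups were 3 cKO-labelled libraries and 2 labelled WT at P4, and again 3 labelled cKO and 2 labelled WT at P7. The genotype label of the cKO libraries is Lsm7-flfl-stra8. It names a conditional allele of Lsm7 and the gene Stra8, which germ cells switch on in response to retinoic acid, but neither the deleted part of Lsm7 nor the driver line is described. The labels give germ cell as the cell type, while the protocol extracts RNA from testis without a sorting step. Whether the libraries come from separate animals is not stated, so each p-value reflects only how far these samples spread, and that spread may be technical.

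Most of the snRNPs that recognise and remove introns hold a small nuclear RNA wrapped by a ring of Sm proteins. The proteins meet as the sub-complexes SmB with SmD3, SmD1 with SmD2, and SmE with SmF and SmG, and the SMN complex loads them onto the RNA in the cytoplasm before the particle returns to the nucleus. Lsm7 belongs to the related LSm family, whose nuclear ring binds U6 RNA and whose cytoplasmic ring takes part in messenger RNA decay.

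SmB and SmN are the closest pair of the family. Snrpn encodes SmN, which takes the place of SmB mainly in brain, and lies in an imprinted region. The coding sequences of Snrpb (693 bases) and Snrpn (720 bases) were identical at 558 of 720 aligned columns, or 77.5%, and the longest identical run was 32 bases. The first 90 coding bases of each are shown because they let the reads of the genes be told apart. They come from GENCODE M21 transcripts on GRCm38, both from the minus strand (chr2:130177080-130179236 for Snrpb and chr7:59987477-59988604 for Snrpn, each running across an intron), with the bases that differ in capitals.
Snrpb: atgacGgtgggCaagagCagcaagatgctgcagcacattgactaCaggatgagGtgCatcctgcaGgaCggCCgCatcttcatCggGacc
Snrpn: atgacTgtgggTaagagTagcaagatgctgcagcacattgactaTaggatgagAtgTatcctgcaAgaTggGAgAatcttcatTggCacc

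The libraries held 28.8 to 41.8 M counted reads. The P7 WT libraries differed by little more than counting noise (chi-square over genes of 1.98 per degree of freedom, against 23.5 to 123 for the other pairs within a group) and were summed and counted as 1 sample. Library 1 of the P7 cKO group stood apart from libraries 2 and 3 (117 and 123, against 23.5 between those), so results that rest on it are given with and without it. Lsm7 averaged 46.3 ± 3.63 counts per 1 M reads (CPM) in the P4 cKO-labelled libraries and 30.9 ± 7.41 CPM in P4 WT (SD, n = 3 and 2). It averaged 30.5 ± 13.1 CPM in the P7 cKO-labelled libraries (SD, n = 3) and 33.3 CPM in the P7 WT sample. No lower Lsm7 level was detected under the cKO label (edgeR log2 fold change 0.58, SE 0.30, adjusted p = 0.215 at P4; -0.13, SE 0.37, adjusted p = 0.835 at P7). Stra8 averaged 4.75 ± 1.15 CPM in the P4 cKO-labelled libraries and 3.91 ± 1.03 CPM in P4 WT (SD, n = 3 and 2), and 67.0 ± 17.3 CPM in the P7 cKO-labelled libraries and 67.2 CPM in the P7 WT sample. Reads are not split by exon in the table, so every direction given here holds for the labels only.

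Markers of several testis cell types also differed between the labelled groups. The summed level of 13 germ cell markers was 280 to 288.7 CPM in the P4 cKO-labelled libraries and 368.4 to 466.9 CPM in P4 WT, with 0 higher and 3 lower. At P7 it was 1336 to 1588 CPM in the cKO-labelled libraries and 2249 CPM in WT, with 0 higher and 2 lower. The 10 Sertoli cell markers summed to 4701 to 5356 CPM in the P4 cKO-labelled libraries and 2689 to 3616 CPM in P4 WT, with 4 higher and 0 lower, and to 4222 to 4785 CPM in the P7 cKO-labelled libraries and 4689 CPM in P7 WT. At P4, 3 of 8 Leydig cell, 3 of 8 peritubular and stromal, and 3 of 8 macrophage markers were also higher, and 0 of 6 endothelial markers passed. The summed Leydig cell markers overlapped at P4, at 1212 to 1408 CPM under the cKO label and 1146 to 1389 CPM in WT. So did the peritubular and stromal markers, at 2575 to 3244 and 2190 to 2611 CPM. At P7, 1 Sertoli cell marker was higher and 1 lower, 1 Leydig cell marker was lower, and 1 peritubular and stromal marker was higher. Of all genes, 4.84% were called higher and 4.13% lower at P4, and 7.26% and 9.72% at P7. Of 8 spermatid markers, 6 were higher at P7 under the cKO label, while 6 of them had no read in P7 WT. The 8 markers summed to only 5.98 to 25.8 CPM in the P7 cKO-labelled libraries and 0.416 CPM in P7 WT. At P4 they summed to 4.28 to 7.91 CPM under the cKO label and to more in WT, 10.2 to 14.1 CPM, with 0 called. No germ cell or Sertoli cell marker was at 0 in any group, and the part of cell composition in the results below was not tested. In bulk RNA, fewer cells of a type and less RNA per cell cannot be told apart.

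The first question was how the Sm genes stood against each other. On the per-length scale of transcripts per 1 M (TPM), 6 members were abundant in every sample. Snrpd2, Snrpg, Snrpe, Snrpd3 and Snrpd1 averaged 578, 488, 455, 427 and 391 TPM in the P4 cKO-labelled libraries, and Snrpb 226 TPM. In P4 WT the order ran Snrpd1 (487 TPM), Snrpd2 (422 TPM), Snrpe (398 TPM), Snrpg (349 TPM), Snrpd3 (339 TPM) and Snrpb (77.2 TPM). Snrpb was thus the lowest of the abundant members in both groups. Its samples lay apart from the next gene up in each, at no more than 264.9 TPM against at least 364.1 TPM of Snrpd1 under the cKO label, and at no more than 100.6 TPM against at least 313.5 TPM of Snrpd3 in WT.

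At P7 the cKO-labelled libraries averaged 827 TPM for Snrpd2, 632 for Snrpg, 444 for Snrpd3, 436 for Snrpd1, 426 for Snrpe and 246 for Snrpb. The P7 WT sample had 481 TPM of Snrpe, 392 of Snrpg, 389 of Snrpd1, 367 of Snrpd3, 291 of Snrpd2 and 108 of Snrpb. Among neighbours in these orders, the samples of Snrpd2 and Snrpg lay apart in the P4 cKO-labelled libraries and those of Snrpe and Snrpg in P4 WT. Those of Snrpe and Snrpb lay apart in the P7 cKO-labelled libraries, but in library 2 there Snrpb (360.4 TPM) was above Snrpd1 (324 TPM). The other neighbours overlapped, apart from Snrpb as above, and the lone P7 WT sample gives no spread. The 6 genes summed to 2355, 2628 and 2711 TPM in the P4 cKO-labelled libraries, against 2170 and 1975 TPM in P4 WT. They summed to 3818, 2906 and 2310 TPM in the P7 cKO-labelled libraries, against 2028 TPM in P7 WT. Each cKO-labelled sample was above each WT sample in this sum, and library 1 at P7 was the highest. How often sums of other genes lie apart in this way was not counted. Snrpb made up 9.75%, 6.98% and 9.77% of the sum in the P4 cKO-labelled libraries and 2.48% and 5.09% in P4 WT. At P7 its share was 3.07%, 12.4% and 11.3% under the cKO label, with library 1 the low value, and 5.32% in WT.

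**Figure D1:**
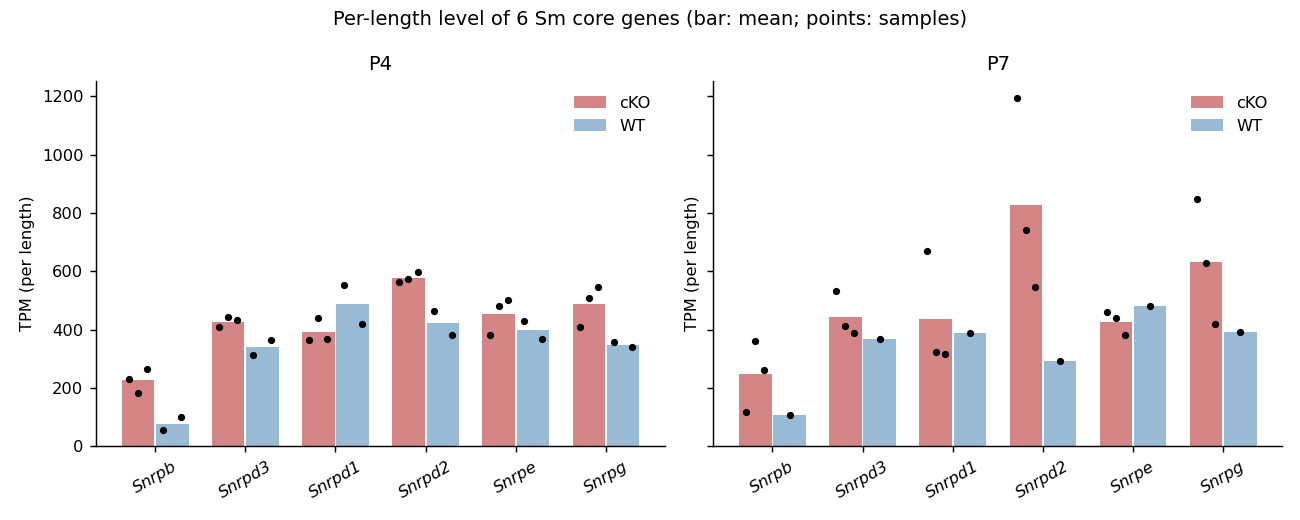
Per-length level (TPM, vertical axis) of the 6 abundant Sm core genes at P4 (left) and P7 (right), with cKO-labelled libraries in red, WT in blue, bars at group means and a point for each sample. Snrpb is the shortest bar in each of the groups, and Snrpd2 is the tallest under the cKO label at both stages, at 578 and 827 TPM.

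The second question was how the members differed between the genotypes. At P4, Snrpb rose under the cKO label and no other member passed the test, so 1 of 7 tested members was higher and 0 were lower. In the same test 4.84% of the 18419 genes were called higher and 4.13% lower. All 7 tested members had a log2 fold change above 0, with a median of 0.65 beside 0.00 over all genes tested. Of these, Snrpd1 (0.0041, SE 0.32) and Snrpf (0.12, SE 0.42) lay within their SE of 0, and Snrpd1 changed sign in 10 of 21 alternatives. The samples of 5 members (Snrpb, Snrpd2, Snrpd3, Snrpe and Snrpg) did not overlap between the groups, all higher under the cKO label. Of all genes, 24.1% lay apart in this direction and 25.6% in the other. At P7, 1 member, Snrpd2, rose and 0 fell, where 7.26% of all genes were called higher and 9.72% lower. The median of the members was 0.82 beside 0.08 over all genes, and 6 of 7 values were above 0. Without P7 cKO library 1 the median was 0.52 beside 0.07 over all genes, and Snrpd1 turned below 0. The samples of 5 members (Snrpb, Snrpd2, Snrpd3, Snrpf and Snrpg) lay above the WT sample and those of 0 below it, as did those of 36.2% and 34.6% of all genes. Scaled by library totals, which moved the median of all genes to -0.16 at P4 and to 0.19 at P7, the members' medians were 0.49 and 0.93. The count of 1 at P4 rested on single libraries, as did the calls over all genes. It was 0 without P4 cKO library 1, 2 or 3, in fits that called 570, 13 and 11 of all genes, against 1651 as reported. It was 4 without P7 cKO library 1, which enters through the shared estimate of the spread, and that fit called 4157 genes. Leaving out P4 WT library 1 left 1 sample in that group, with a members' median of 0.62.

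**Figure D2:**
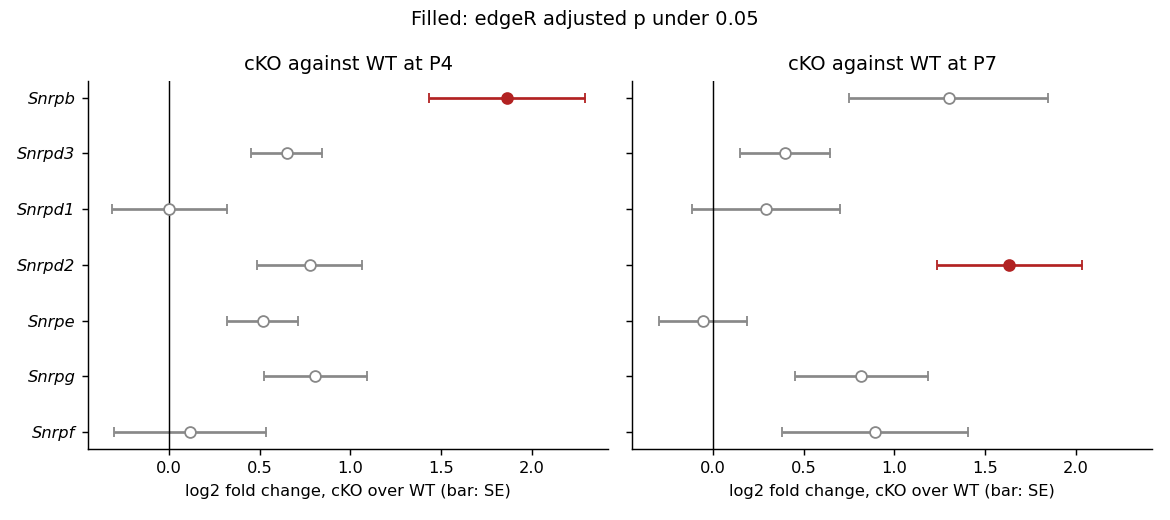
Log2 fold change of the cKO-labelled libraries over WT (horizontal axis) for the 7 tested Sm core genes at P4 (left) and P7 (right), with bars for the SE and filled points where the edgeR adjusted p is under 0.05. Snrpb at P4 (1.86) and Snrpd2 at P7 (1.63) are the filled points, and the values for Snrpd1 at P4 (0.00) and Snrpe at P7 (-0.06) lie on the zero line.

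Snrpb encodes SmB, and in human cells its own level is held in check through an alternative exon that sends its transcript to decay. The gene (chromosome 2, 130171636 to 130179364, minus strand) shared none of its 1121 exon bases with another gene. GENCODE M21 lists 1 coding, 1 nonsense-mediated decay and 2 intron-retaining transcripts, which the gene counts do not separate. At P4 it had 116.9, 99.2 and 145.5 CPM in the cKO-labelled libraries, against 22.8 and 43.5 CPM in WT. All 3 cKO-labelled libraries lay above both WT libraries. The fold was 3.64 (log2 1.86, SE 0.43, edgeR adjusted p = 0.0297, n = 3 and 2). At P7 it had 54.3, 163.6 and 112.1 CPM in the cKO-labelled libraries, against 44.8 CPM in WT. Library 1, the low value of that group, lay near WT and the other libraries well above it. The log2 value at P7 was 1.30 (SE 0.55, adjusted p = 0.125, n = 3 and 1), and it passed in 4 of 21 alternative settings. Among those were the fits of 10 separate libraries without and with a replicate block, which take the P7 WT libraries as 2 samples. The log2 value was 1.62 without library 1 (adjusted p = 0.00964), 0.90 without library 2 (adjusted p = 0.24), and 0.90 with offsets for exon length and GC content (adjusted p = 0.491).

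The P4 call for Snrpb held in 17 of 21 alternative settings, with log2 values of 1.47 to 2.40 and adjusted p-values from 7.01e-05 to 0.278. It was lost when P4 cKO library 1 (1.88, adjusted p = 0.0572), library 2 (1.98, adjusted p = 0.0676) or library 3 (1.70, adjusted p = 0.103) was left out. Calls over all genes fell in the same fits, to 570, 13 and 11, against 1651 as reported. The call was also lost without P4 WT library 1, which left 1 sample in that group (log2 value 1.47).

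Snrpd3 encodes SmD3, the partner of SmB, whose tail carries methylated arginines that help the SMN complex to bind. The gene (chromosome 10, 75518042 to 75535440, plus strand, 604 exon bases) had 111.7, 129.1 and 127.8 CPM in the P4 cKO-labelled libraries, against 71.4 and 85.1 CPM in P4 WT. It had 132.7, 101 and 90.2 CPM in the P7 cKO-labelled libraries, against 82.0 CPM in P7 WT. The groups did not overlap at either stage. Neither difference passed, with log2 fold changes of 0.65 at P4 (SE 0.19, adjusted p = 0.0582) and of 0.40 at P7 (SE 0.25, adjusted p = 0.283). The P4 value passed in 6 of 21 alternatives, among them the fit without P7 cKO library 1 (0.65, adjusted p = 0.0104).

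**Figure D3:**
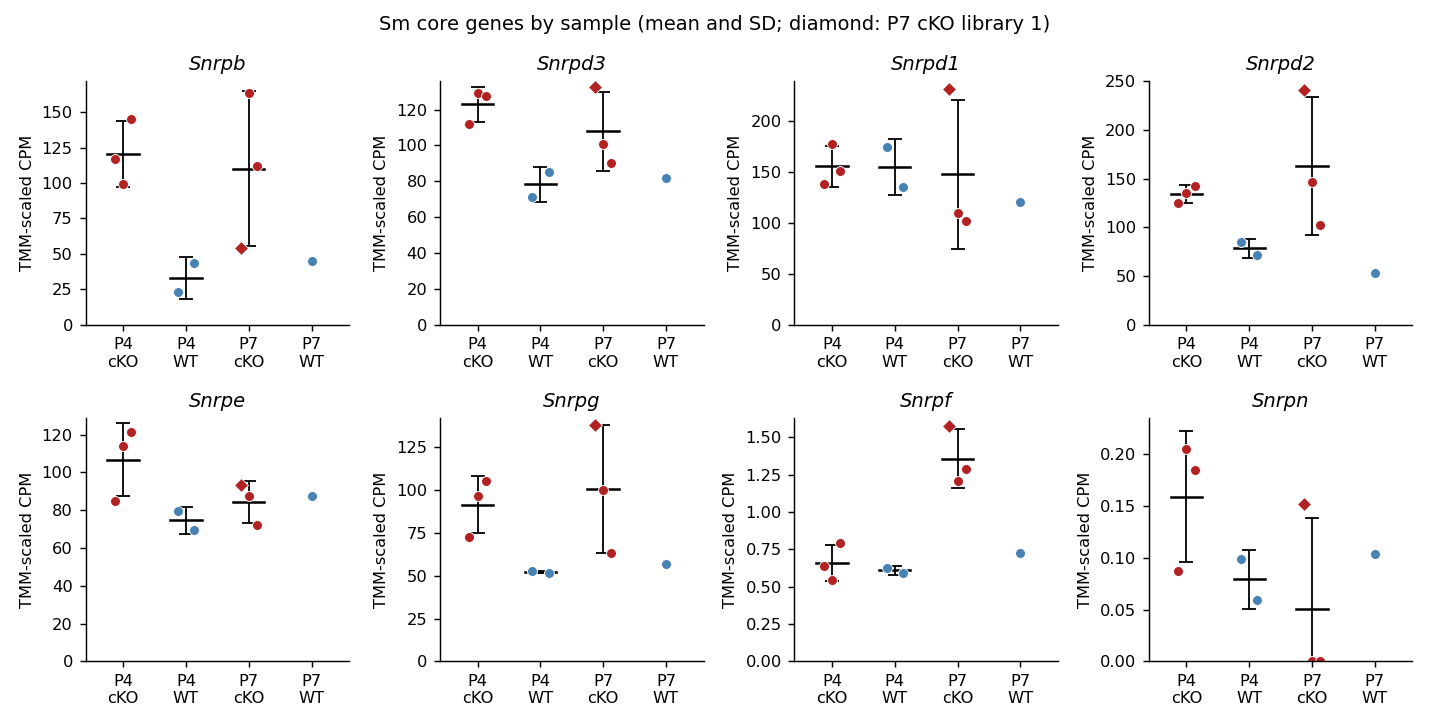
TMM-scaled CPM (vertical axes, each from 0) of the 8 Sm core genes in each sample, cKO-labelled libraries in red left of WT in blue at each stage, with group mean and SD and a diamond for P7 cKO library 1. The diamond is the lowest of its group for Snrpb (54.3) and the highest for the other members, as for Snrpd2 (240.9), and the scales for Snrpf and Snrpn end near 1.6 and 0.2.

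SmD1 and SmD2 form a sub-complex. Snrpd1, for SmD1 (chromosome 18, 10617796 to 10628230, plus strand, 837 exon bases), had 138.3, 177.7 and 151.2 CPM in the P4 cKO-labelled libraries, against 174.9 and 135.6 CPM in P4 WT. At P7 it had 231.7, 109.8 and 101.5 CPM under the cKO label, with library 1 far above the others, against 120.7 CPM in WT. The groups overlapped at both stages. Snrpd1 had a log2 fold change of 0.00 at P4 (SE 0.32, adjusted p = 0.995), and at P7 it came to 0.29 (SE 0.41, adjusted p = 0.653), or -0.19 at P7 without library 1 (adjusted p = 0.561).

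Snrpd2, for SmD2 (chromosome 7, 19149838 to 19152726, plus strand, 488 exon bases), had 124.9, 135.2 and 142.8 CPM in the P4 cKO-labelled libraries, against 85.2 and 71.8 CPM in P4 WT. It had 240.9, 146.6 and 102.5 CPM in the P7 cKO-labelled libraries, against 52.7 CPM in P7 WT. The groups did not overlap at either stage, and library 1 was again the highest at P7. The log2 fold change was 0.78 at P4 (SE 0.29, adjusted p = 0.109), which did not pass. It passed in 3 of 21 alternatives, among them the fits without P7 cKO library 1 (0.77, adjusted p = 0.00802) and of P4 libraries alone (0.76, adjusted p = 0.0133). At P7 the fold was 3.1 (log2 1.63, SE 0.40, adjusted p = 0.0211, n = 3 and 1), and 1.24 on the log2 scale without library 1 (adjusted p = 0.00327). The P7 call held in 19 of 21 alternatives. It was lost with offsets for exon length and GC content (0.93, adjusted p = 0.152) and when only P7 libraries were fitted (1.61, adjusted p = 0.123). Those fits called only 2 of 18419 and 0 of 17832 genes at P7.

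**Figure D4:**
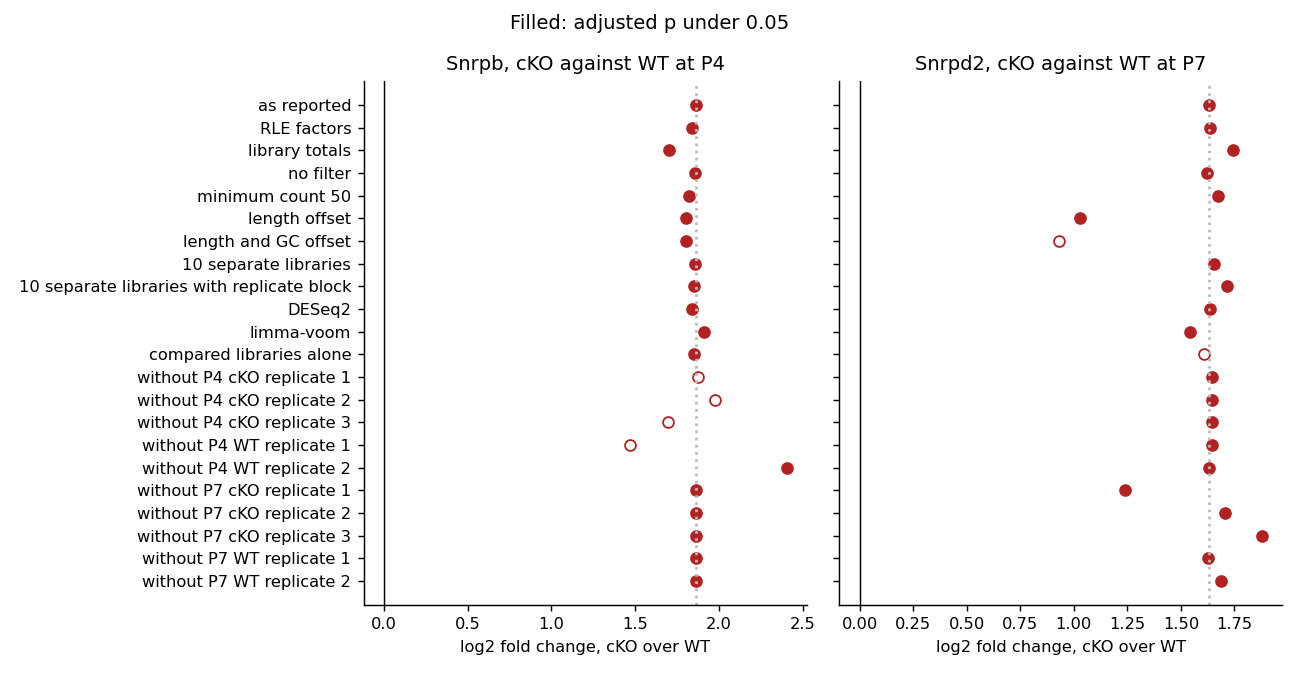
Log2 fold change of the cKO-labelled libraries over WT (horizontal axis) for Snrpb at P4 (left) and Snrpd2 at P7 (right) as reported and under each of 21 alternative settings (vertical axis), filled where the adjusted p is under 0.05, with a dotted line at the reported value. All values lie right of 0, from 1.47 to 2.40 for Snrpb and from 0.93 to 1.88 for Snrpd2.

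Snrpg and Snrpe, for SmG and SmE, are partners with SmF. Snrpg (chromosome 6, 86371540 to 86378902, plus strand, 393 exon bases) had 72.9, 96.3 and 105.1 CPM in the P4 cKO-labelled libraries, against 52.8 and 51.8 CPM in P4 WT. It had 138, 100.1 and 63.3 CPM in the P7 cKO-labelled libraries, against 57.0 CPM in P7 WT. The groups lay apart at both stages, with library 3 close to WT at P7. At P4 the log2 fold change of Snrpg was 0.81 (SE 0.28, adjusted p = 0.0906), and at P7 it came to 0.82 (SE 0.37, adjusted p = 0.143). Neither passed, though the P4 value did without P7 cKO library 1 (0.81, adjusted p = 0.0136), and at P7 the size fell to 0.52 without it (adjusted p = 0.178). The P7 value passed in 3 of 21 alternatives, among them the fit without library 3 (1.06, adjusted p = 0.0384). The rest were the fits of 10 separate libraries without (0.84, adjusted p = 0.0285) and with a replicate block (0.89, adjusted p = 0.0275). Those take the P7 WT libraries as 2 samples, though they differed by little more than counting noise, and called 6905 and 7438 of 17602 genes.

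Snrpe (chromosome 1, 133603871 to 133610280, minus strand, 492 exon bases) had 85.1, 114.2 and 121.3 CPM in the P4 cKO-labelled libraries, against 79.7 and 69.6 CPM in P4 WT. It had 93.5, 87.4 and 72.1 CPM in the P7 cKO-labelled libraries, against 87.6 CPM in P7 WT. The groups lay apart narrowly at P4 and overlapped at P7. Its log2 fold change was 0.52 at P4 (SE 0.20, adjusted p = 0.11), and at P7 it came to -0.06 (SE 0.24, adjusted p = 0.893), and neither value passed in any of the 21 alternatives.

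Snrpf was counted far below its ring partners. It had 22, 16 and 30 reads in the P4 cKO-labelled libraries and 19 and 20 in P4 WT, and 52, 48 and 53 reads in the P7 cKO-labelled libraries and 19 and 23 in P7 WT. The gene (chromosome 10, 93583029 to 93589658, minus strand) shares 687 of its 813 exon bases, or 84.5%, with genes of the opposite strand, 567 with Ccdc38 and 120 with 4933408J17Rik. Of its transcripts' stretches of 100 bases, 78.3% also occurred in transcripts of other genes, against at most 8.22% for Snrpb, Snrpd1, Snrpd2, Snrpd3, Snrpe and Snrpg. How reads in shared exons were counted is not given in the sources used here, and the part of the overlap in the low count was not tested. The 126 bases that lie in no other gene's exons are shown because they are the stretch where a read could belong to Snrpf alone (chr10:93587998-93588123, minus strand, coding, GENCODE M21 on GRCm38).
Snrpf: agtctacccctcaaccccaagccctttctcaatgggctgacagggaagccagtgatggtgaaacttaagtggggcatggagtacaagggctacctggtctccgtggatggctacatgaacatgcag

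In CPM, Snrpf had 0.636, 0.548 and 0.790 in the P4 cKO-labelled libraries, against 0.629 and 0.590 in P4 WT. It had 1.58, 1.21 and 1.29 CPM in the P7 cKO-labelled libraries, against 0.728 CPM in P7 WT. The groups overlapped at P4 and lay apart at P7. The log2 fold change was 0.12 at P4 (SE 0.42, adjusted p = 0.875), and at P7 it came to 0.89 (SE 0.51, adjusted p = 0.244). These counts are too low, and too entangled with Ccdc38, to stand for the level of SmF messenger RNA beside the other members.

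Snrpn had 3, 6 and 7 reads in the P4 cKO-labelled libraries and 3 and 2 in P4 WT. It had 5, 0 and 0 reads in the P7 cKO-labelled libraries and 4 and 2 in P7 WT, 32 reads in all. A count of 0 allows up to 0.0792 and 0.0764 reads per 1 M in P7 cKO libraries 2 and 3, for counting error only and with each read taken as independent. The limits are higher if both mates of a pair were counted. The gene (chromosome 7, 59982495 to 60450177, minus strand) shares 2964 of its 4098 exon bases, or 72.3%, with the same-strand genes Snhg14 and Snurf. Snurf, which has no exon base of its own, had 0 reads in all libraries, and the long noncoding RNA Snhg14 had 1896 reads in the P4 cKO-labelled libraries, 1377 in P4 WT, 1267 in the P7 cKO-labelled libraries and 1648 in P7 WT. Snrpn was below the filter on low counts, so no fold change is given. The part of the overlap in its count was not tested, and a lack of Snrpn transcripts cannot be read from these values.

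The third question was how the members differed between the stages. In the cKO-labelled libraries, 1 of 7 members, Snrpf, was higher at P7 than at P4 and 0 were lower, where 14.5% of all genes were called higher and 14.7% lower. Its log2 change was 1.03 (SE 0.36, adjusted p = 0.0495, fold 2.05), on the low counts above. The call passed in 7 of 21 alternatives and was lost without P7 cKO library 1 (0.91, adjusted p = 0.105). Snrpe had the lowest of the other values, -0.34 (adjusted p = 0.159), and Snrpd2 the highest, 0.28 (adjusted p = 0.434). Without library 1 the value of Snrpd1 was -0.56 (adjusted p = 0.0237), which passed, and -0.08 with it (adjusted p = 0.863). The members' median was -0.08, beside 0.00 over all genes tested.

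In WT, 0 members passed between P7 and P4, where 11.8% of all genes were called higher and 9.97% lower by edgeR. No member had an unadjusted p under 0.05, and DESeq2 and limma-voom called 0 as well. Values ran from -0.58 for Snrpd2 (adjusted p = 0.306) to 0.43 for Snrpb (adjusted p = 0.581), with a median of 0.13 beside -0.03 over all genes. The P7 WT sample lay above both P4 WT samples for 4 members (Snrpb, Snrpe, Snrpf and Snrpg) and below both for 2, as it did for 42.6% and 42.8% of all genes. The WT course rests on 1 sample against 2. The genotype comparisons at P4 and P7 and the stage courses share samples, so they are not independent of each other.

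The difference between the stages in the genotype effect was tested as an interaction, and 0 members passed, as did 0% of all genes. No member had an unadjusted p under 0.05 in edgeR, and DESeq2 and limma-voom called 0 members. The values nearest to the threshold were those of Snrpe (-0.57, SE 0.31, adjusted p = 0.261) and Snrpd2 (0.86, SE 0.47, adjusted p = 0.267). Snrpb gave -0.56 (SE 0.64, adjusted p = 0.602). The calls for Snrpb at P4 and Snrpd2 at P7 were thus not shown to differ between the stages. Across all genes this test depended on the setting, with 1611 genes called by DESeq2 and 3105 with the 10 libraries taken as separate samples.

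Ratios between partners of a sub-complex, chosen after the values were seen and given as a description, cancel what a sample's scaling does to both genes. The ratio of Snrpd2 to Snrpd1 in TPM was 1.55, 1.3 and 1.62 in the P4 cKO-labelled libraries, against 0.835 and 0.908 in P4 WT. At P7 it was 1.78, 2.29 and 1.73 in the cKO-labelled libraries, against 0.748 in WT. All 6 cKO-labelled samples lay above 1 and all 3 WT samples below it. The ratio of Snrpg to Snrpe was 1.07, 1.06 and 1.08 in the P4 cKO-labelled libraries, against 0.829 and 0.932 in P4 WT. It was 1.85, 1.43 and 1.1 in the P7 cKO-labelled libraries, against 0.814 in P7 WT, so these groups did not overlap either. How many other pairs of genes have ratios that lie apart in this way was not counted. The ratio of Snrpb to Snrpd3 was 0.564, 0.414 and 0.613 in the P4 cKO-labelled libraries, against 0.172 and 0.275 in P4 WT. It was 0.221, 0.873 and 0.67 in the P7 cKO-labelled libraries, against 0.294 in P7 WT. Here library 1 at P7 lay among the WT values and the other cKO-labelled samples above them. As a difference of fitted log2 fold changes, Snrpd2 exceeded Snrpd1 by 0.77 at P4 and 1.34 at P7. With offsets for length and GC content these differences were 0.57 and 0.53. Snrpg exceeded Snrpe by 0.29 at P4 and 0.87 at P7, and by 0.23 and 0.51 with the offsets. Snrpb exceeded Snrpd3 by 1.21 at P4 and 0.90 at P7, and by 1.17 and 0.76 with the offsets.

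**Figure D5:**
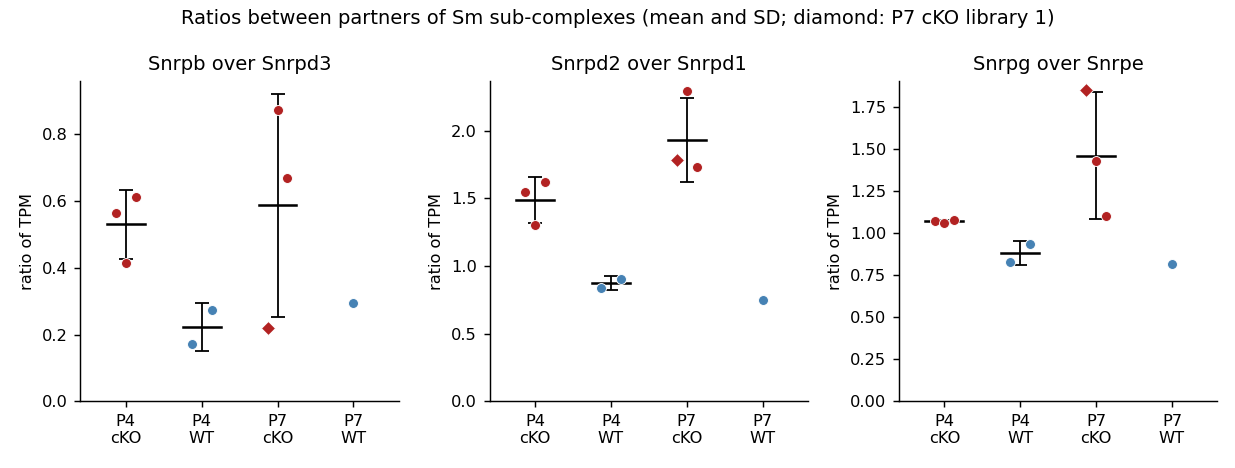
Ratio of TPM (vertical axes, from 0) between partners of the known Sm sub-complexes in each sample, cKO-labelled libraries in red left of WT in blue at each stage, with mean and SD and a diamond for P7 cKO library 1. For Snrpd2 over Snrpd1 the 6 cKO-labelled samples sit between 1.3 and 2.29, above the 3 WT samples at 0.748 to 0.908, while for Snrpb over Snrpd3 the diamond at 0.221 lies among the WT samples.

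Exon length moved with the genotype differences over the whole table. At P4 the median log2 fold change was 0.32 over the 382 tested genes of up to 500 exon bases, 0.19 over the 1334 of 500 to 1000, and -0.08 over the 5494 of more than 4000. At P7 the medians were 0.51, 0.63 and -0.28 in the same classes. Snrpd2, Snrpe and Snrpg fall in the shortest class and Snrpd1, Snrpd3 and Snrpf in the next, while Snrpb, at 1121 bases, lies in the class of 1000 to 2000, with medians of 0.09 and 0.40. With an offset for length the members' median was 0.49 at P4 and 0.24 at P7, and with length and GC content 0.63 and 0.64. At P7 the offset for both left 2 of 18419 genes called, against 3129 without it. The P7 value of Snrpd2 was 0.93 with that offset, against 1.63 without it, and 1.03 with the length offset alone (adjusted p = 0.0254). Snrpb at P4 kept a log2 value of 1.81 with the offset for both (adjusted p = 0.0409).

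The members did not move as a block across samples. Over the 9 samples, which share the scaling and the 4 groups, log2 CPM was most alike for Snrpd2 and Snrpg (Pearson r = 0.914, Spearman rho = 0.933), then Snrpd3 and Snrpg (0.893 and 0.867). Snrpb and Snrpd1 had the lowest value (-0.388 and -0.300). Over the 8 samples without P7 cKO library 1, Snrpd3 and Snrpg were the most alike (0.875 and 0.810), and Snrpd2 and Snrpg gave 0.858 and 0.905. Snrpd1 and Snrpf had the lowest value (-0.821 and -0.762), on the low counts of Snrpf, and Snrpb and Snrpd1 gave -0.367 and -0.310. Snrpf also enters the members' mean used next. The 5 genes outside the family most like the members' mean, of 10757 whose mean log2 CPM reached 3, were the mitochondrial elongation factor gene Tsfm (r = 0.993, rho = 0.983), the mitochondrial import gene Tomm7 (0.987 and 0.983), Lamtor2 of the lysosomal Ragulator complex (0.984 and 0.933), the RNA polymerase subunit gene Polr2l (0.967 and 0.900) and the cytochrome oxidase assembly gene Cox14 (0.967 and 0.883). P7 cKO library 1 was the highest sample for each of the 5, as for Snrpd2 and Snrpg. Without it, 3 of the 5 (Lamtor2, Tsfm and Tomm7) were again among the 5 most alike, at r = 0.991, 0.990 and 0.980 over 8 samples, and Polr2l and Cox14 ranked 17 and 27.

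The start regions of Snrpd2 and Snrpg, the most alike pair over all 9 samples, are shown for their letters. RefSeq promoters on GRCm38.p6 were matched for 6 of the 8 members, all but Snrpb and Snrpd1. The 100 bases before each start are printed from the plus strand (chr7:19149738-19149837 for Snrpd2 and chr6:86371440-86371539 for Snrpg), with matches on either strand to the motifs below in capitals.
Snrpd2: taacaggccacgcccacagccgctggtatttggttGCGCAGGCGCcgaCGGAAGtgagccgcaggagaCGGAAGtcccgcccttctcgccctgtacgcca
Snrpg: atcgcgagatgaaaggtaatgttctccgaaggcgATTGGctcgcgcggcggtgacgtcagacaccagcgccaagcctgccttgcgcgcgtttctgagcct

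In the 250 bases before the start, on both strands, the ETS core CGGAAG occurred 2 times in Snrpd2, 2 times in Snrpe and 1 time in Snrpg, and in neither Snrpd3 nor Snrpf. It was present in 13.6% of 32851 promoters of that length. The NRF1-like motif (GCGCA, any base, then GCGC) occurred 1 time in Snrpd2 and not in Snrpd3, Snrpe, Snrpf or Snrpg, and in 3.74% of all promoters. The CCAAT motif occurred 2 times in Snrpd3, 3 times in Snrpf and 1 time in Snrpg, in neither Snrpd2 nor Snrpe, and in 33.8% of all promoters. The printed matches do not overlap each other. A match is a run of letters and not a binding site.

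The fourth question was how genes that work with the Sm ring differed. Of 23 snRNP assembly genes at P4, 1 was higher and 2 were lower under the cKO label, with a list median of -0.01, where 4.84% of all genes were called higher and 4.13% lower. The calls fell to 0 without P4 cKO library 2 or 3, in fits that called only 13 of 18405 and 11 of 18270 genes. Calls without P4 WT library 1, which left 1 sample in that group, are not counted here. Gemin7 of the SMN complex rose by a log2 value of 0.60 (SE 0.16, adjusted p = 0.0412). Xpo1, the exporter that carries small nuclear RNAs to the cytoplasm, fell by 1.14 (SE 0.20, adjusted p = 0.0147), and Riok1, a partner of the arginine methyltransferase Prmt5, fell by 0.62 (SE 0.18, adjusted p = 0.048). Smn1, for the SMN protein, had a log2 value of 0.39 (adjusted p = 0.193). At P7, 0 of 23 were higher and 3 were lower, with a median of 0.02, where 7.26% of all genes were called higher and 9.72% lower. Here 0 were called with length and GC offsets or with P7 libraries alone, in fits that called 2 of 18419 and 0 of 17832 genes. Xpo1 fell by 1.44 (SE 0.24, adjusted p = 0.00695) and Strap of the SMN complex by 0.75 (SE 0.23, adjusted p = 0.0456). Tgs1, which methylates the cap of small nuclear RNAs further after the ring is loaded, fell by 1.11 (SE 0.18, adjusted p = 0.00675).

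Of 31 genes for proteins specific to single snRNPs, 4 were higher and 1 was lower at P4, with a median of 0.38, beside the same shares of 4.84% and 4.13% over all genes. Again 0 were called without P4 cKO library 2 or 3, in the fits that called only 13 of 18405 and 11 of 18270 genes. Sf3b5, of the U2 snRNP, rose by 0.96 (SE 0.16, adjusted p = 0.0138) and Snrpc, of the U1 snRNP, by 1.24 (SE 0.34, adjusted p = 0.0477). Sf3b2, also of the U2 snRNP, rose by 0.70 (SE 0.19, adjusted p = 0.045). Sf3b1, which contacts the branch point, fell by 0.85 (SE 0.19, adjusted p = 0.0254). At P7, 7 of the 31 were higher and 0 lower, with a median of 0.48, beside 7.26% and 9.72% of all genes. With length and GC offsets or with P7 libraries alone 0 were called, in fits that called 2 of 18419 and 0 of 17832 genes. Sf3b5 rose by 1.37 (SE 0.22, adjusted p = 0.00643) and the U1 gene Snrnp70 by 1.24 (SE 0.28, adjusted p = 0.0158). The tri-snRNP gene Sart1 rose by 1.19 (SE 0.28, adjusted p = 0.019) and the U2 gene Sf3a2 by 1.18 (SE 0.29, adjusted p = 0.0207). Sm and snRNP-specific genes thus held 1 and 4 higher calls of 7 and 31 at P4, while at P7 there were 1 and 7, and the difference between the lists was not tested.

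Each Sm protein has a counterpart in the LSm rings, of which 1 of 10 listed genes, Lsm4, was higher at each stage and 0 were lower, beside 4.84% of all genes called higher at P4 and 7.26% at P7. Lsm4, the counterpart of SmD3, rose by 0.95 at P4 (SE 0.26, adjusted p = 0.0441), and its rise at P7 was 1.15 (SE 0.34, adjusted p = 0.0408), while Snrpd3 gave 0.65 and 0.40 and did not pass. The call for Lsm4 held in 12 of 21 alternatives at P4 and in 14 at P7. Over those alternatives the lowest log2 values of Lsm4 were 0.64 (P4) and 0.07 (P7), and the highest were 1.11 and 1.34. With length and GC offsets, 0 LSm genes were called at either stage, where 1436 genes were called at P4 and 2 at P7. The same held with library totals for P4 (2072 genes called), and with P7 libraries alone for P7 (0 of 17832). At P4, no LSm gene was called without P4 cKO library 1, 2 or 3 or P7 cKO library 3. Those fits called 570, 13, 11 and 1108 of all genes. At P7, none was called without P4 cKO library 1, 2 or 3 or P7 cKO library 2. Those fits called 2539, 2012, 2719 and 961. Fits without a P4 WT library leave 1 sample in that group, and their calls are not listed here. Lsm3, the counterpart of SmD2, gave log2 values of 0.09 (adjusted p = 0.824) and 0.72 (adjusted p = 0.133) at these stages, beside 0.78 and 1.63 for Snrpd2. Lsm1 and Lsm8, which hold the place of SmB, gave 0.19 and 0.13 at P4 (adjusted p = 0.593 and 0.719), beside 1.86 for Snrpb. Lsm7 itself is the counterpart of SmG, and Snrpg gave 0.81 and 0.82 beside 0.58 and -0.13 for Lsm7. These values stand side by side, and differences between counterparts were not tested.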

How the data were processed

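The deposited data are 1 table of raw counts for each gene, as its layout and whole-number values show, with coordinates on GRCm38 (mm10). According to the submitters' processing notes, it was made with STAR 2.7.11a, featureCounts of Subread 2.0.6, SAMtools 1.6 and Trim Galore 0.6.10, with quality reports from FastQC 0.12.1 and MultiQC 1.14. Neither the strand setting nor the treatment of multiply matching reads is given in the sources used here. Of counts from 1 to 49, 67.8% to 80% were even, which fits counting of both mates. The floors for a count of 0 take each read as independent and cover counting error only, so they are too low where both mates were counted.

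All genes were fitted together with edgeR 4.0.16 in R 4.3.3 (TMM factors, filterByExpr with a minimum count of 10, robust quasi-likelihood F test, a mean for each group). The fit had 9 samples, 5 residual degrees of freedom, 18419 genes and a common biological coefficient of variation of 0.228. P7 WT, with 1 sample, was taken to vary like the other groups. P-values are two-sided and adjusted by Benjamini-Hochberg over all genes tested, with a threshold of 0.05. The SE is the log2 fold change over the root of its F value. CPM uses TMM factors, and TPM divides counts by exon length and scales each sample to 1 M.

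The text names all 8 members, genes that overlap them, Lsm7 and Stra8, the genes of each pathway list with the smallest p past the threshold (up to 4), and the 5 genes most like the members. Smn1 and the LSm counterparts that did not pass were added after their values were seen. The members, lists and tests were chosen with earlier results of these data known. Alternatives used edgeR's RLE factors, library totals, no filter, a minimum count of 50, length and GC offsets, 10 separate libraries with and without a replicate block, DESeq2 1.42.0, limma-voom (limma 3.58.1), the compared libraries alone, and each library left out. The scripts were tested on simulated data.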

Additional observations from a re-analysis of the deposited data

How the results depend on the processing

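Beside 1 member called in each genotype comparison as reported, 3 passed at P4 and 0 at P7 with length and GC offsets, 2 and 3 with 10 separate libraries, 3 and 2 with DESeq2, and 4 and 0 with the compared libraries alone. Calls over all genes moved as well. In the same order, these fits called 1436 of 18419, 2895 of 17602, 2985 of 17150 and 3229 of 16937 genes at P4. At P7 they called 2 of 18419, 6905 of 17602, 4221 of 17150 and 0 of 17832 genes. Where 0 members passed at P7, almost no gene passed. Leaving out a library gave 0 to 4 at P4 and 1 to 2 at P7. For P7 against P4 under the cKO label (1 as reported), 0 passed without a filter, with length and GC offsets, with DESeq2 and with limma-voom, and 0 to 1 with a library left out. With the length offset the 1 call there was Snrpe (-0.53, adjusted p = 0.0328) in place of Snrpf. The WT course and the interaction had 0 members called in each fit run. No fit of compared libraries alone exists for the interaction. Over the alternatives, calls among the snRNP assembly, snRNP-specific and LSm genes ran from 0 to 5, 0 to 13 and 0 to 3 at P4 (3, 5 and 1 as reported), and from 0 to 8, 0 to 18 and 0 to 5 at P7 (3, 7 and 1). At P4 the calls over all genes ran from 2 to 4157 (1651 as reported), and at P7 from 0 to 7438 (3129).

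Over 13 pairs of equal replicate number, the correlation of deviations ran from -0.164 to 0.308, with 4 over 0.1. Pairs with a P7 WT library ran from -0.007 to 0.017, and those libraries differed by little more than counting noise. With only 2 libraries, a WT group also has mirrored deviations, so whether equal numbers pair the samples cannot be decided. With the replicate block, 3 members passed at P4 (Snrpb, Snrpd2 and Snrpd3) and 3 at P7 (Snrpd2, Snrpb and Snrpg). That fit takes the P7 WT libraries as 2 samples, and it called 2732 of 17602 genes at P4 and 7438 at P7.

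The log2 values that changed sign belonged to differences that did not pass as reported. Snrpd1 at P4 was -0.024 with RLE factors, -0.16 with library totals, -1.32e-05 without a filter, -0.044 with a minimum count of 50, -0.11 with the length offset, -0.0034 with 10 libraries, -0.024 with DESeq2 and -0.011 with P4 libraries alone, and ran from -0.17 to 0.20 with a library left out. At P7 it was -0.22 with the length offset and ran from -0.19 to 0.50. Snrpf at P4 was -0.044 with library totals and ran from -0.050 to 0.22. At P7, Snrpd3 was -0.14 with the length offset, and Snrpe was 0.053 with library totals and 0.13 with length and GC offsets, and ran from -0.14 to 0.046. In the course under the cKO label, Snrpd1 was 0.11 with library totals and ran from -0.56 to 0.13, and Snrpd2 ran from -0.11 to 0.53. In that course Snrpb and Snrpg changed sign in 3 and 4 of 21 alternatives, and Snrpd3 did so in 2 of 21 in the WT course. In the interaction Snrpd1, Snrpd3 and Snrpg did so in 2, 1 and 6 of 20. The causes were not tested. Groups of 3 against 2 and 3 against 1 limit what these data can show, and for Snrpf and Snrpn the depth does too.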
